A study of Mus musculus with 17 samples.

Results

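The NF-kB system of T cells was followed through 10 genes, taken by symbol from the 24537 genes in every deposited table. They are the 5 transcription factor subunits Nfkb1, Nfkb2, Rel, Rela and Relb, the inhibitors of the IkB family Nfkbia, Nfkbib, Nfkbie and Nfkbid, and Tnfaip3. NF-kB subunits work as paired proteins. In a resting cell IkB proteins hold them in the cytoplasm; signals from the antigen receptor, co-stimulatory receptors or cytokine receptors switch on the IKK kinases, the IkB protein is destroyed and the subunits enter the nucleus. Among the genes they then switch on are their own inhibitors: Nfkbia encodes the IkB protein that is remade soonest and takes the subunits back out of the nucleus, and Tnfaip3 encodes an enzyme that edits ubiquitin chains upstream of IKK and damps the signal. In T cells this system serves activation, survival and cytokine production.

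RNA of sorted mouse T cells was measured with Smart-seq2, a protocol for full-length RNA from few cells, in 17 libraries of 6 groups. GATIR mice, titled WT in every library, carry a Gata3-YFP reporter, which marks cells expressing the Th2 regulator Gata3, and gave Th2 cells from bronchoalveolar lavage (airway GATIR, 3 libraries) and from the mediastinal lymph node, which drains the lung (node GATIR, 3). OTII mice carry a transgenic T cell receptor and gave Th2 cells of the same node, either titled WT, with OTII as the whole genotype label (node WT, 3), or labelled Notch1/2-KO (node KO, 4). The mice behind these groups had an allergen-driven airway inflammation. Naive splenic T cells of both OTII genotypes were also turned into Th2 cells over 7 days on plates coated with anti-CD3/CD28, with IL-4 and antibodies against IFN-gamma and IL-12/23 (culture WT, 2, and culture KO, 2). The Cre driver, the deleted exons, the animals' age and sex, and whether a library pools animals are not given in the sources used here, so p-values measure the spread between these libraries. The series calls them biological replicates. Figures write reporter for GATIR. The headers of node OTII libraries carry numbers that WT replicates 2 and 3, KO replicates 1 and 2, and KO replicates 3 and 4 share; what they stand for is not stated.

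Each library held 16.3 to 27.5 M reads. The lowest member, Rel, rested on 290 to 651 reads per library. In node WT and culture KO the spread of Rel between libraries (CV 4.56% and 5.99%) is close to what counting such numbers of reads gives. Values below are scaled RPKM, reads per kilobase of transcript adjusted for library size, and means carry the SD over n libraries. All 8 listed T cell markers were at or above 1 in every library. The 7 listed Th2 genes summed to 1036 to 1659 in the GATIR groups and 154 to 224 in the OTII groups. Gata3 averaged 423 and 410 in airway and node GATIR, against 40.9 to 87.5 in the OTII groups. Ccr4 went the other way, at 3.66 and 3.19 against 38.8 to 44.0. The airway GATIR libraries also held macrophage RNA: the 12 listed macrophage genes summed to 3574, 7903 and 3572, with 9 of 12 at or above 1 in all 3 libraries, against 84.3 to 132 in node GATIR and 46.3 to 84.7 in the OTII groups. In node GATIR, Mrc1, Marco, Ear2 and Adgre1 were listed at 0. Notch1 averaged 48.6 ± 1.49 (n = 3) in node WT and 11.1 ± 2.34 (n = 4) in node KO, and 28.3 ± 2.25 (n = 2) and 2.68 ± 2.28 (n = 2) in culture. Notch2 averaged 8.0 ± 0.310 in node WT and 16.4 ± 2.12 in node KO, so its level does not show the deletion. Dtx1, a classical Notch target, averaged 44.3 ± 8.05 in node WT and 0.912 ± 0.220 in node KO. KO replicate 2 of the node stood apart from its group: its correlation with the other KO libraries across genes was 0.981 to 0.987, against 0.988 to 0.993 among those, and results that rest on it are given with and without it.

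The subunits were led by Nfkb1, which encodes a precursor that is processed to a DNA-binding subunit without an activation domain of its own. Its group means ran from 200.4 ± 11.7 (n = 3) in airway GATIR and 198 ± 25.4 (n = 3) in node GATIR, through 165 ± 2.50 (n = 4) in node KO and 154 ± 3.75 (n = 3) in node WT, to 107 ± 4.80 (n = 2) in culture KO and 102 ± 1.14 (n = 2) in culture WT. Only the airway and node GATIR ranges overlapped among neighbours in this order. Within each library, where scaling cancels, Nfkb1 made up 47.6 to 68.1% of the summed RPKM of the 5 subunits. GATIR and OTII cells come from different mouse lines, and no test was made between them. In bulk libraries, fewer cells of a type and less RNA per cell cannot be told apart.

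Rela, the main activating subunit of the canonical route, was the steadiest member, with a ratio of 1.36 between its highest group mean (53.5 ± 6.26, n = 4, node KO) and its lowest (39.2 ± 8.09, n = 3, node GATIR). Every neighbouring pair of groups overlapped. Rel, the activating subunit induced in stimulated lymphocytes, was the lowest of the 10 in level, from 5.35 to 14.6 over the 17 libraries, and its 6 groups overlapped throughout the order as well. Relb, the partner of the alternative route, differed more: it was 46.9, 26.7, 48.5 and 45.8 in node KO, 33.4, 30.5 and 27.3 in node WT, 30.6, 25.3 and 27.1 in airway GATIR and 15, 31.3 and 25.6 in node GATIR. In culture Relb was 6.58 and 10.1 (WT) and 10.6 and 9.22 (KO), below all 13 other libraries. The highest group mean of Relb was 5.03 times its lowest. Relb is the one member listed under another transcript in the GATIR tables (2187 bases) than in the OTII tables (2181 bases).

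Nfkb2, the precursor of the alternative route, was 51.0, 52.9 and 45.0 in node WT and 67.1, 46.7, 67.6 and 68.1 in node KO. The other groups lay lower, at 29.5 to 43.7 in airway GATIR, 26.9 to 39.6 in node GATIR, 24.5 and 33.5 in culture WT and 35.1 and 33.4 in culture KO. These 4 lower groups overlapped each other along the order. As a share of the 5 subunits, Nfkb2 made up 10.9 ± 2.13% (n = 3) in airway GATIR and 10.7 ± 0.805% (n = 3) in node GATIR, against 17 ± 0.818% (n = 3) in node WT. The share of Rela was 22.8 ± 1.75% (n = 2) in culture WT and 23.9 ± 1.23% (n = 2) in culture KO, above its 10.3 to 18% in all other libraries, and that of Relb was 4.37 ± 0.956% and 4.77 ± 0.469% there.

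**Figure D1:**
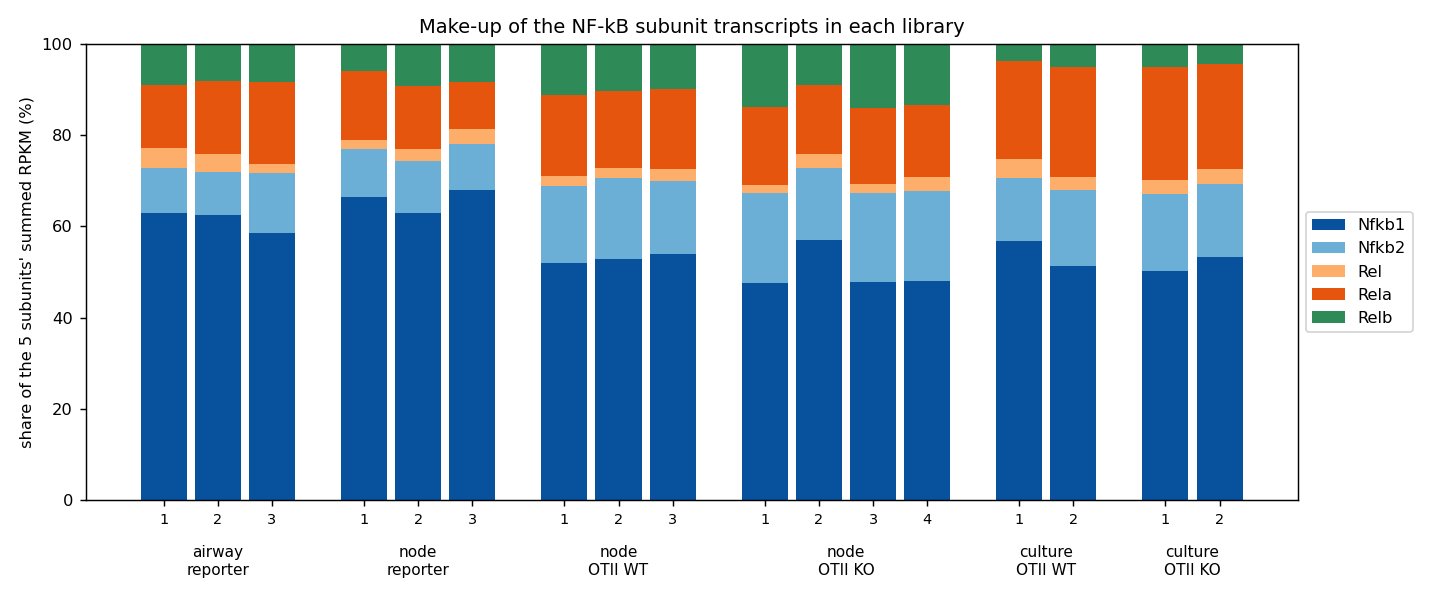
Stacked bars show, for each of the 17 libraries (replicate number below each bar), the share of Nfkb1, Nfkb2, Rel, Rela and Relb in their summed RPKM, in percent. Nfkb1 takes 47.6 to 68.1% in each library, and the band of Relb is narrowest in the 4 culture libraries.

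Of the inhibitors, Nfkbia and Tnfaip3 had the widest ranges of group means among the 10 genes, whereas Nfkbib, Nfkbie and Nfkbid varied less than the subunit Relb. Nfkbia was 994, 889 and 914 in airway GATIR, 512, 578 and 542 in node GATIR, 281, 354 and 322 in node WT, 215, 174, 194 and 192 in node KO, 33.7 and 30.6 in culture KO and 21.5 and 30.2 in culture WT. It was the only member with no overlap between neighbours in the order of the 6 groups, and its highest group mean was 36.1 times its lowest. The step between the culture groups was narrow, from 30.6 in KO to 30.2 in WT. The share of all genes without overlap in such an order was not counted. In both GATIR groups, node WT and node KO the mean of Nfkbia was the highest of the 10 genes per length of transcript. In both culture groups its mean lay below those of Nfkb1, Rela and Nfkb2. Tnfaip3 had another order: 228, 102 and 115 in airway GATIR, 55.1, 131 and 100.1 in node WT, 76.2, 90.9, 70.4 and 67.7 in node KO, 38.0 and 23.6 in culture KO, 26.6 and 33.0 in culture WT and 30.1, 17 and 22.9 in node GATIR. Node GATIR cells thus paired the second highest Nfkbia with the lowest Tnfaip3, and Nfkbia / Tnfaip3 there was 24.9 ± 8.51 (n = 3), against 7.01 ± 2.33 (n = 3) in the airway and 3.68 ± 1.26 (n = 3) in node WT.

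Nfkbib, a slower-acting inhibitor, had its means in the same group order as Nfkbia but in a narrower range, from 68.9 ± 19.7 (n = 3) in airway GATIR to 24.5 ± 6.68 (n = 2) in culture WT, and only the step from node GATIR to node WT was free of overlap. Nfkbie, a further cytoplasmic IkB, lay between 11 and 14.3 in culture and between 15.4 and 29.3 elsewhere. Nfkbid, a nuclear IkB-like protein that acts on transcription, was 43.6, 44.4 and 40.8 in node WT and 47.7, 28.9, 42.5 and 40.0 in node KO. It was lower in culture, at 14.3 to 18.9, and in airway GATIR, at 8.20, 7.93 and 26.8. Of the summed RPKM of the 5 inhibitor genes, Nfkbia took 78.9 ± 2.63% (n = 3) in airway GATIR, 80.3 ± 0.415% (n = 3) in node GATIR, 62.0 ± 1.95% (n = 3) in node WT, 52.3 ± 0.625% (n = 4) in node KO and 23.0 to 28.2% in the 4 culture libraries.

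**Figure D2:**
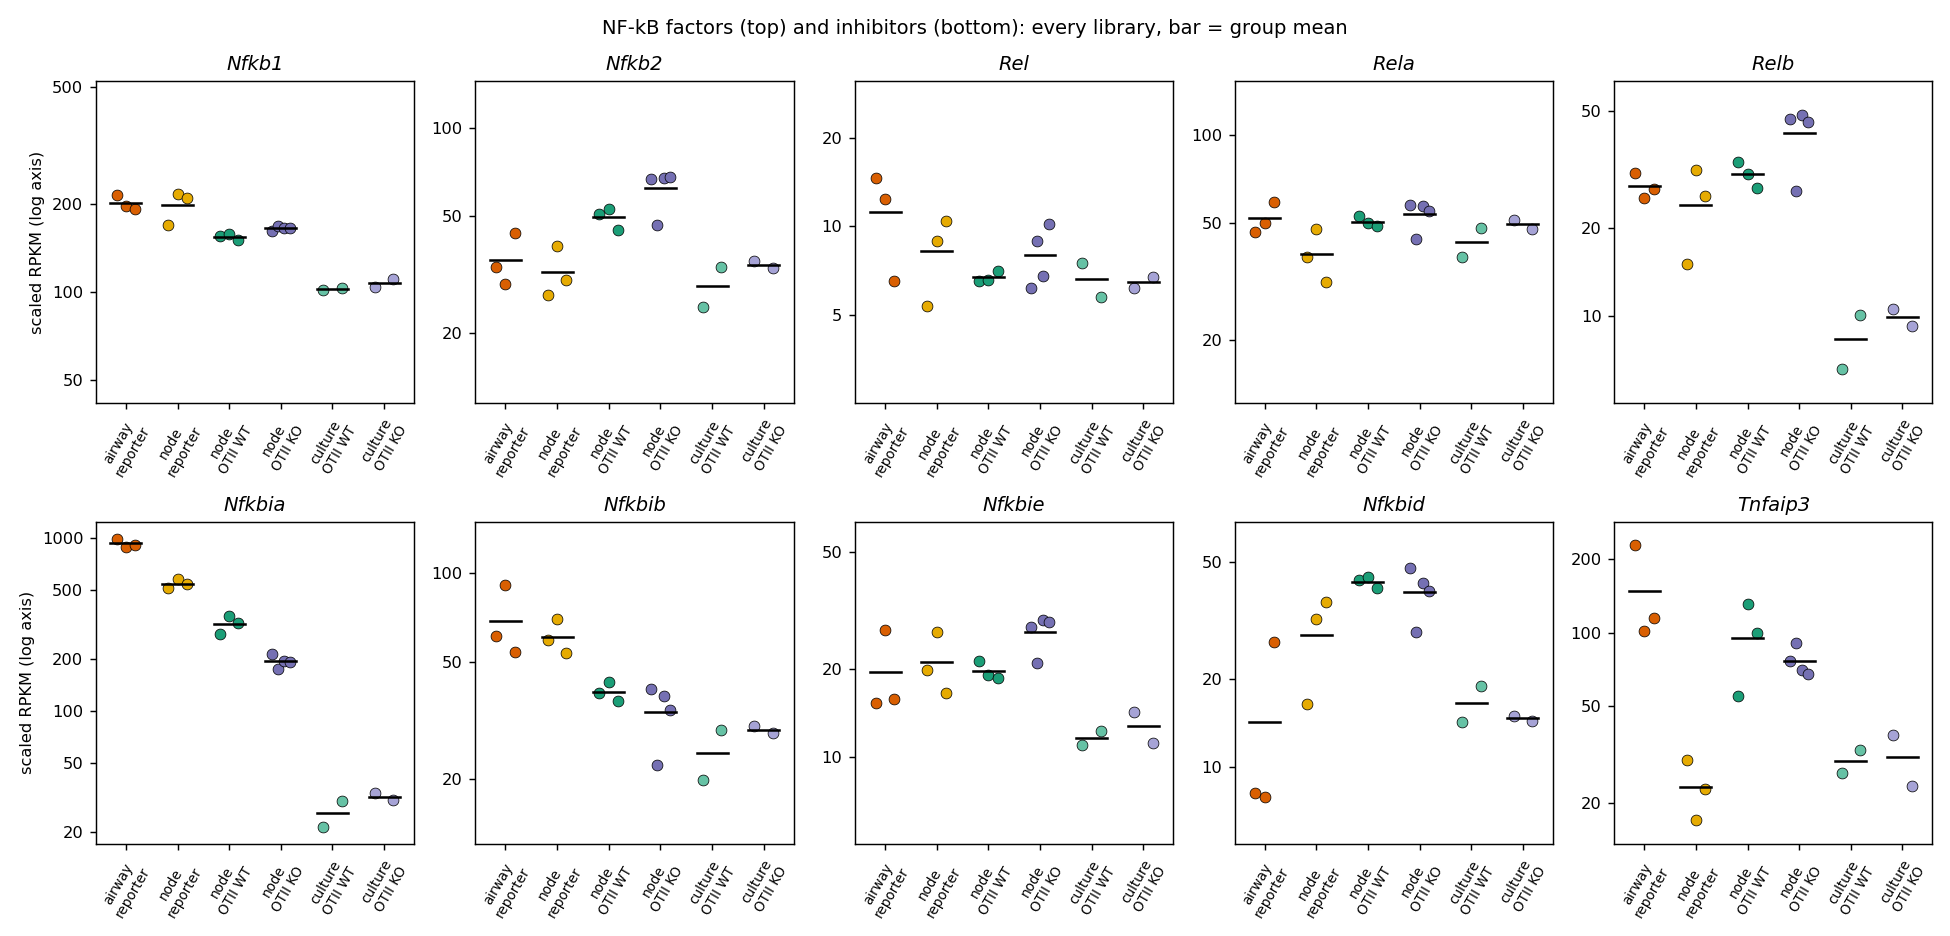
Scaled RPKM (log axis) of each of the 10 genes in the 6 groups, 1 point per library and a bar for the group mean, with subunits in the top row and inhibitors below. Nfkbia steps down from 889 to 994 in airway GATIR to 21.5 to 33.7 in culture with no overlap between neighbouring groups, while Rela and Rel overlap throughout.

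Since Nfkbia, Tnfaip3 and Nfkb2 are the members on which the differences below turn or that carry the most binding-type motifs, the sequence at their starts is shown. It comes from RefSeq on GRCm38.p6 (mm10), as 300 bases from 250 before to 50 after a transcript start. Of the members, 8 of 10 matched an entry, with 13 windows. Capitals mark matches to the kB motif, a 10-base consensus searched on both strands, overlaps included. The motif was in 8 of the 13 windows and in 6 of the 8 members, against 4.51% of 32851 windows and 5.14% of 27025 genes. The Nfkb2 windows chr19:46305445-46305744 and chr19:46305680-46305979 overlap and hold the same GGGACTTTCC match, which counts in each. The Nfkbia window (chr12:55492598-55492897, minus strand) holds 1 match, GGAAATTCCC, 29 to 20 bases before the start that the tables also list. The Tnfaip3 window (chr10:19015361-19015660, minus strand) lies at a start 3447 bases upstream of the listed one and holds 2 matches. The window at the listed Tnfaip3 start holds none. The Nfkb2 window (chr19:46304487-46304786, plus strand) lies at a start 1193 bases upstream of the listed one and holds 3 matches, of which the leading pair overlap. Rel, Nfkbie and Nfkbid also had a match in 1 window or more, and Nfkbib and Rela had none in the windows searched. A match is a description of letters and not a measured binding site.
Nfkbia: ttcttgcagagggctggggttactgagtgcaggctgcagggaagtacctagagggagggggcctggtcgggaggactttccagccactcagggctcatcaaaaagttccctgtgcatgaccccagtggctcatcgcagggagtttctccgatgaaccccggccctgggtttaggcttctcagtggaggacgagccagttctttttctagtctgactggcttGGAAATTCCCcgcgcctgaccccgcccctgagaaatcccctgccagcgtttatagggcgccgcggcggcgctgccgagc
Tnfaip3: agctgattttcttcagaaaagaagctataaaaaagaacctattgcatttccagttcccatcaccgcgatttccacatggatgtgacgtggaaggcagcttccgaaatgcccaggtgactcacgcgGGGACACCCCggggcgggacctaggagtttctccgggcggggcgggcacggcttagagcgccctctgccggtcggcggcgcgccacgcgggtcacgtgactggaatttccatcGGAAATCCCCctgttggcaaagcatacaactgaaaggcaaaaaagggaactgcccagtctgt
Nfkb2: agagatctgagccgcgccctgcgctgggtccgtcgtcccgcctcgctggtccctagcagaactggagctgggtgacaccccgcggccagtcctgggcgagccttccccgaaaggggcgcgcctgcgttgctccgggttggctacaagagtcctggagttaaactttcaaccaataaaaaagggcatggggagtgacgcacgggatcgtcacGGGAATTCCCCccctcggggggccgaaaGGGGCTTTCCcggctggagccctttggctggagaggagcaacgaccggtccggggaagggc

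Airway and node GATIR cells were compared to ask how Th2 cells in the airway lumen differ from those still in the node. Of the 10 members, 2 rose in the airway and 0 fell. Over all 10121 genes tested, 2.96% rose and 2.31% fell. Tnfaip3 rose, from 30.1, 17 and 22.9 to 228, 102 and 115, with every airway library above every node library. Its log2 fold change was 2.56 (SE 0.34, adjusted p = 0.00517), and the ratio of the group means was 6.36. The airway replicates of Tnfaip3 were themselves spread, with replicate 1 at 228 and the other two at 102 and 115.

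Nfkbia rose too, from 512 to 578 in the node to 889 to 994 in the airway, again without overlap (log2 fold change 0.78, SE 0.11, adjusted p = 0.00693). These 2 members were the only ones whose groups did not overlap, as did those of 26.9% of all genes tested. The call of Nfkbia was lost when the variance trend was left out of the fit (adjusted p = 0.159) and without node GATIR replicate 3 (adjusted p = 0.0531); that of Tnfaip3 held in all 17 alternatives run. Markers of other cells moved with this contrast. In airway replicates 1, 2 and 3 the macrophage sum was 3574, 7903 and 3572 (84.3 to 132 in the node), that of neutrophils 16.7, 6.54 and 7.95 (0.917 to 1.17), that of dendritic cells 15.3, 39.1 and 18.8 (2.22 to 4.13), that of airway epithelium 13, 91.6 and 47.7 (0.244 to 9.41) and that of basophils 280.3, 150.3 and 166 (562 to 893). Over these 3 libraries the neutrophil and basophil sums had the same order as Tnfaip3 (228, 102 and 115) and Nfkbia (994, 889 and 914), and the macrophage, dendritic and epithelial sums did not. In the airway, 1 of 6 listed neutrophil genes and 0 of 6 epithelial genes were at or above 1 in all 3 libraries. The neutrophil gene was S100a8 (mean 4.81). Scgb1a1 made up most of the epithelial sum (mean 43.7, from 0 to 91.6), while Epcam was lower in the airway (0.696 against 4.26 in the node). Fcer1a, Ms4a2, Prss34 and Gata2, of the basophil list, were listed at 0 in both groups. The part of these cells in either result was not tested.

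The other 8 members did not pass. Nfkbid had the largest estimate among them, a log2 fold change of -1.08 (95% interval -2.23 to 0.07, adjusted p = 0.278): it was 8.20 and 7.93 in airway replicates 1 and 2 but 26.8 in replicate 3, inside the node range of 16.5 to 36.7. It passed only in a fit that drew its spread from all 6 groups (adjusted p = 0.0402). For Rela the estimate was 0.41 (-0.12 to 0.94, adjusted p = 0.380) and for Nfkb1 0.02 (-0.31 to 0.36, adjusted p = 0.952). The scaling moves such small estimates: across the whole table the median was -0.07 with it and -0.20 on RPKM as deposited, and the calls split into 300 higher and 234 lower with it against 229 and 317 as deposited. Of the 59 pathway genes tested, 4 rose and 2 fell, and their median was 0.08 on the log2 scale.

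Those that rose were Il1rl1, the IL-33 receptor of Th2 cells (205.6 ± 18.3 in the airway against 40.2 ± 2.40 in the node, log2 fold change 2.32, adjusted p = 0.000290), the co-stimulatory receptor gene Tnfrsf18 (0.89, adjusted p = 0.00937), the adaptor gene Traf1 (0.94, adjusted p = 0.0337) and the adhesion gene Icam1 (1.58, adjusted p = 0.0157). The adaptor gene Traf5 fell by 1.58 (adjusted p = 0.0350) and Tnfrsf9, a co-stimulatory receptor gene, by 1.61 (adjusted p = 0.0316), both on the log2 scale. Il1rl1 was called in all 17 alternatives; each of the other 5 lost its call in at least 1. Icam1 was the 1 gene called among 14 tested of the NF-kB target list, of which 8 had a positive estimate. None of the 8 IKK genes or 4 antigen receptor route genes tested passed.

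**Figure D3:**
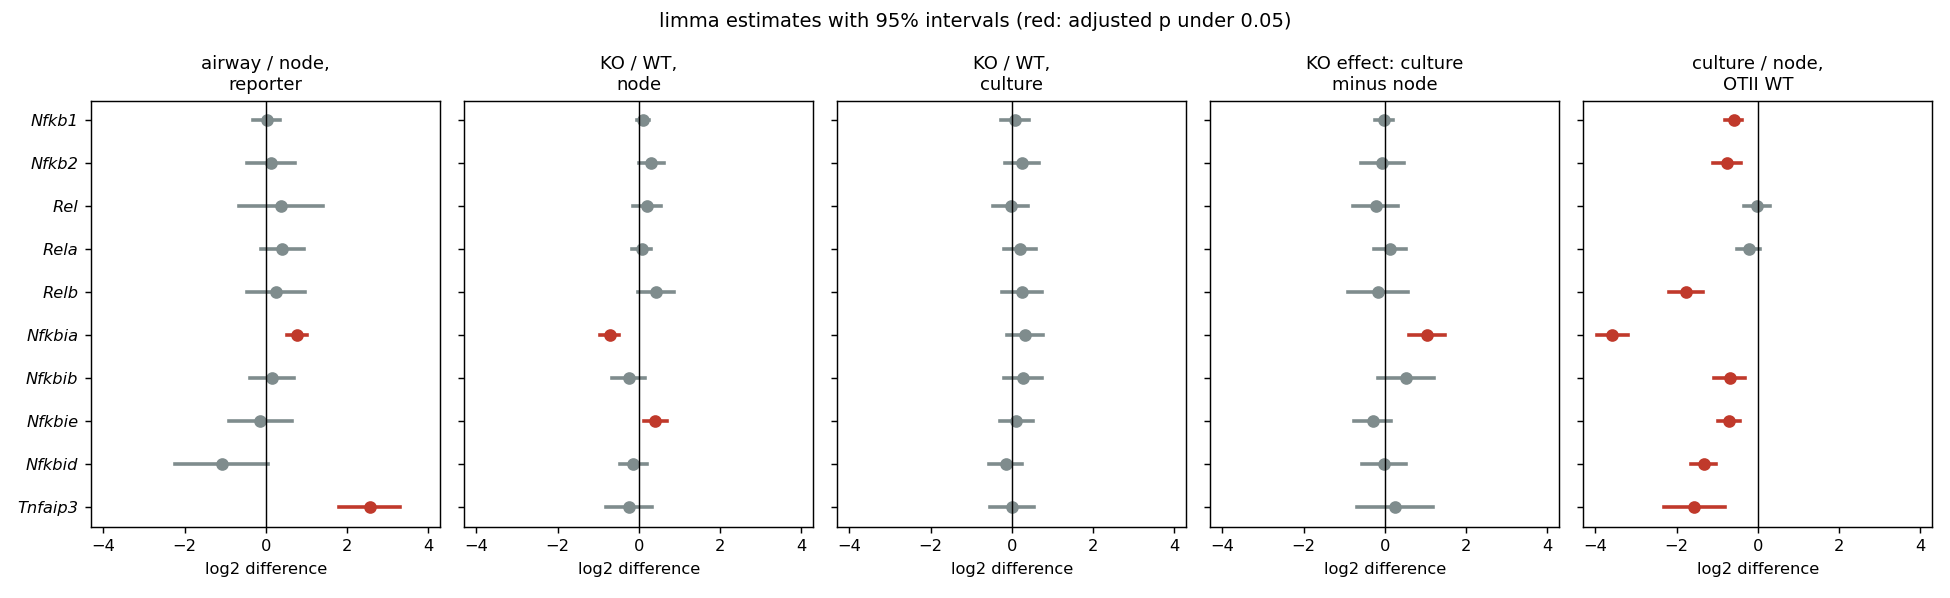
Log2 differences of the 10 genes with 95% intervals from limma in the 5 comparisons, with red for an adjusted p under 0.05. Nfkbia is red in 4 panels, to the right in the airway (0.78) and to the left for KO in the node (-0.71). In culture against node 8 of 10 genes are red, all to the left.

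In the node, KO and WT OTII cells were compared to ask what loss of Notch1/2 changes in Th2 cells at that site. Of the 10 members, 1 rose and 1 fell, against 10.4% and 7.68% of all 10884 genes tested. Nfkbia fell: it was 281, 354 and 322 in WT and 215, 174, 194 and 192 in KO, and all 4 KO libraries lay below all 3 WT libraries (log2 fold change -0.71, SE 0.10, adjusted p = 0.00211). Nfkb1 was the other member without overlap, with all KO libraries (161 to 167) above WT (150.0 to 157), and 31.2% of all genes tested had groups that did not overlap here. The WT mean of Nfkbia was 1.65 times the KO mean. This call held in all 18 alternatives, with adjusted p-values from 0.00113 to 0.0489. Low levels of other cells' markers also differed. The macrophage sum was 65.7 to 84.7 in WT and 46.3 to 66.7 in KO. Without overlap, the sum was lower in KO for NK and CD8 T cells (4.24 to 5.32 against 7.26 to 10.5), basophils (0.136 to 0.724 against 1.97 to 2.58) and neutrophils (0.140 to 0.307 against 0.561 to 1.4), and higher for dendritic cells (1.89 to 3.26 against 1.11 to 1.38). Single genes carried most of the basophil and dendritic differences: Hdc averaged 2.12 in WT and 0.192 in KO, and Ccl22 0.679 and 2.00. Mcpt8, Fcer1a, Ms4a2 and Prss34 were listed at 0 in both groups. Klrb1c had the largest drop of the NK and CD8 list (4.20 and 0.272), while Cd8b1 averaged 3.57 and 4.11. The part of other cells in the results of this comparison was not tested.

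Nfkbie, which encodes another inhibitor, rose: 21.4, 19.1 and 18.6 in WT and 27.7, 21.0, 29.3 and 28.8 in KO (log2 fold change 0.41, SE 0.12, adjusted p = 0.0473). KO replicate 2, at 21.0, lay inside the WT range. Without that library the call was kept, at a log2 fold change of 0.52. The call was close to the threshold and was kept in 6 of 18 alternatives. It was lost without WT replicate 1, 2 or 3 (adjusted p = 0.0716, 0.158 and 0.157), without KO replicate 1, 3 or 4 (0.0847, 0.114 and 0.124) and on RPKM as deposited (0.0740).

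The alternative-route genes Nfkb2 and Relb depended on KO replicate 2. With all libraries, Nfkb2 had a log2 fold change of 0.31 (95% interval -0.01 to 0.62, adjusted p = 0.163) and Relb one of 0.42 (-0.02 to 0.86, adjusted p = 0.176). Replicate 2 lay at 46.7 for Nfkb2 and 26.7 for Relb, within or below the WT libraries, while the other KO libraries lay at 67.1 to 68.1 and 45.8 to 48.5, above them. Without it both passed, at 0.44 (SE 0.07, adjusted p = 0.00391) and 0.62 (SE 0.08, adjusted p = 0.00132), and 3 members rose and 1 fell. The number of all genes called in the node moved too, between 1015 and 2721 as each library in turn was left out. Replicate 2 was also the lowest KO library for Nfkbib (22.3), Nfkbid (28.9) and Nfkbia (174), and the highest for Tnfaip3 (90.9).

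Tnfaip3 did not pass in the node. Its log2 fold change was -0.24 (95% interval -0.81 to 0.33, adjusted p = 0.554), with WT at 55.1, 131 and 100.1 on both sides of KO at 67.7 to 90.9. Single WT libraries move this value: without replicate 1 the estimate was -0.59 (SE 0.15, adjusted p = 0.0435), and without replicate 2 it was 0.0287. Its interval holds the estimate of Nfkbia, and the difference between the genes was not tested. The estimates for Rela (0.07, -0.16 to 0.30, adjusted p = 0.676) and Nfkb1 (0.09, -0.05 to 0.24, adjusted p = 0.362) had intervals that exclude a change of the size seen for Nfkbia.

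Among the 60 pathway genes tested in the node, 14 rose and 8 fell in KO, beside 10.4% and 7.68% of all genes tested, with a median of 0.06 on the log2 scale against 0.02 over the whole table. The list of 16 NF-kB target genes held 7 that rose and 2 that fell among 13 tested, with a median of 0.44. The smallest p-values were those of Il2, the T cell growth factor (4.91 ± 1.25 in KO against 0.401 ± 0.0467 in WT, log2 fold change 2.05, adjusted p = 0.000108), the lymphotoxin gene Lta (50.3 ± 18.6 against 8.98 ± 0.966, 2.29, adjusted p = 0.000490) and Tnf (56.4 ± 15.2 against 15.4 ± 2.13, 1.77, adjusted p = 0.000521). These targets rose in the libraries in which the target gene Nfkbia fell.

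Of the receptor list, Tnfrsf1a, a TNF receptor gene, rose (1.08, adjusted p = 0.000343), while Il1r1, the IL-1 receptor gene, fell to 0.0878 ± 0.0532 from 3.82 ± 0.254 (adjusted p = 1.04e-05) and the co-stimulatory Tnfrsf4 fell by 0.64 on the log2 scale (adjusted p = 0.00300). Nfkbiz, an IkB-like nuclear regulator, averaged 20.8 ± 0.799 in WT and fell to 9.61 ± 1.62 in KO (-1.05 on the log2 scale, adjusted p = 0.000676). Other calls were smaller: Cyld (0.56, adjusted p = 0.0138), Traf1 (0.47, adjusted p = 0.0285), Birc3 (0.45, adjusted p = 0.00903) and Tab2 (0.36, adjusted p = 0.0343) rose, and Prkcq, the kinase of the antigen receptor route (-0.50, adjusted p = 0.00633), and Otulin (-0.23, adjusted p = 0.0472) fell. Il2, Lta, Tnf, Tnfrsf1a, Il1r1 and Nfkbiz were called in every alternative in which they could be tested; Tnfrsf4, Cyld, Traf1, Birc3, Tab2, Prkcq and Otulin lost the call in at least 1.

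**Figure D4:**
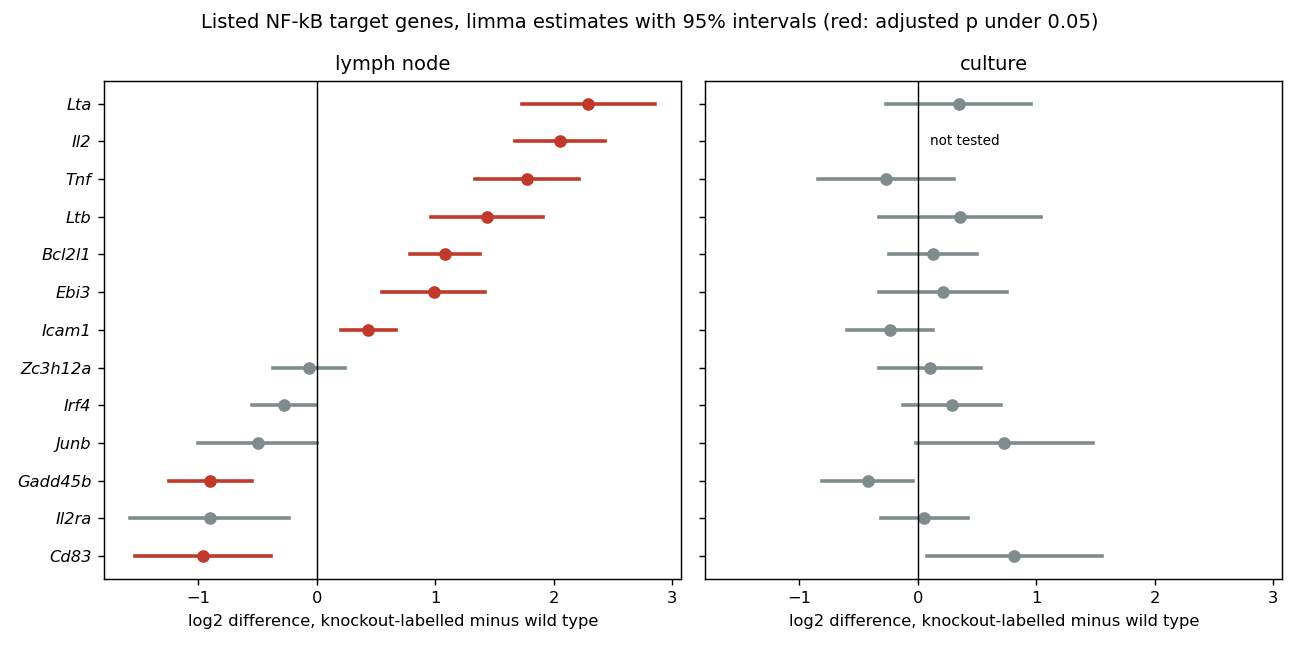
Log2 differences between KO and WT with 95% intervals for the listed NF-kB target genes tested in the node (left, 4 against 3 libraries) and in culture (right, 2 against 2), with red for an adjusted p under 0.05. In the node 7 genes are red to the right, up to 2.29 for Lta, and 2 to the left, and in culture none is red; Il2 was not tested there.

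In culture the same genotypes were compared away from the node. No member rose or fell: the share of genes called was 0% in the upward and 0% in the downward direction among 10984 tested. At an unadjusted p under 0.05 there were 258 genes, and limma-voom on recovered reads called 2. Nfkbia was 21.5 and 30.2 in WT and 33.7 and 30.6 in KO, so that both KO libraries lay just above WT (log2 fold change 0.32, 95% interval -0.12 to 0.77, adjusted p = 1.0); 21.2% of all genes tested had groups that did not overlap. Nfkb1 was the other member with separate groups, at 101 and 103 against 104 and 111. Tnfaip3, at 26.6 and 33.0 against 38.0 and 23.6, had an estimate of 0.01 (-0.53 to 0.56). The 95% interval in culture held the node estimate of every member except Nfkbia and Nfkbib. None of the 59 pathway genes tested passed.

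Whether the KO effect differed between culture and node was tested as an interaction over the 4 OTII groups. The effect on Nfkbia did: it was 1.04 higher on the log2 scale in culture than in the node (SE 0.20, adjusted p = 0.0183), and Nfkbia was the 1 member called, against 1.5% of all 11526 genes with a positive and 2.34% with a negative difference. This call rested on few libraries. It was lost without node WT replicate 3 (adjusted p = 0.0526), culture WT replicate 1 (0.0757) and either culture KO library (0.0723 and 0.0572), and also when node libraries that share a number in their headers were averaged (0.0793). The direction was positive in all 21 alternatives, from 0.80 to 1.27. For the other members the difference did not pass; for Nfkbie it was -0.30 (-0.76 to 0.16, adjusted p = 0.480), and for Relb -0.17 (-0.91 to 0.56, adjusted p = 0.806).

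Of 63 pathway genes in this test, the difference was positive for Nfkbiz (1.09, adjusted p = 0.00915) and Il1r1 (1.92, adjusted p = 0.000886), both of which fell in node KO, and negative for 6, among them Tnf (-2.04, adjusted p = 0.00860), Tnfrsf1a (-1.29, adjusted p = 0.00515) and the survival gene Bcl2l1 (-0.95, adjusted p = 0.0269). Il2 was also called, but it was listed at 0 in all 4 culture libraries. This contrast and the comparison in the node share the node libraries and are not independent. Il1r1 was called in all 20 alternatives in which it could be tested; Nfkbiz, Tnf, Tnfrsf1a, Bcl2l1 and Il2 lost the call in at least 1.

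Wild type OTII cells in culture and in the node differ in site, time and stimulus, which cannot be told apart, and they share the node WT libraries with the comparisons above. Of the 10 members, 8 fell in culture and 0 rose, while over all 11128 genes 13.5% fell and 17.5% rose. Nfkbia fell most, from 281, 354 and 322 to 21.5 and 30.2 (log2 fold change -3.59, SE 0.16, adjusted p = 1.69e-05), which makes the node mean 12.4 times that of culture. Relb fell by 1.77 (adjusted p = 0.000351), Tnfaip3 by 1.56 (adjusted p = 0.00953) and Nfkbid by 1.33 (adjusted p = 0.000359) on the log2 scale. Smaller declines were found for Nfkb2 (-0.77, adjusted p = 0.00791), Nfkbie (-0.71, adjusted p = 0.00362), Nfkbib (-0.69, adjusted p = 0.0180) and Nfkb1 (-0.59, adjusted p = 0.00282). In 9 members, all but Rel, the culture libraries lay below every node WT library, beside 57.9% of all genes tested that did not overlap in either direction. The T cell marker sum was lower in culture too, at 1773 to 1900 against 2574 to 2919. Of its genes, Cd4 averaged 82.0 against 380.0 and Cd3d 349 against 378, while Cd28 alone had a higher mean (77.98 against 68.98). The sums of B cells (8.45 to 10.9 against 14.3 to 17.5) and macrophages (52.9 to 57.1 against 65.7 to 84.7) were lower as well. Other sums were higher in culture without overlap. These were basophils (6.64 to 16.3 against 1.97 to 2.58) and NK and CD8 T cells (13.2 to 16.1 against 7.26 to 10.5). Dendritic cells were the last of them (2.03 to 2.26 against 1.11 to 1.38). Within these lists genes went both ways. Of the basophil list, Cpa3 averaged 10.99 in culture against 0.0545 in the node, but Hdc 0.234 against 2.12. Fcer1a, Ms4a2 and Prss34 were listed at 0 in both groups. Prf1 had the largest increase of the NK and CD8 list (7.01 against 0.346), while Klrb1c was lower (0.165 against 4.20). Xcr1 had that of the dendritic list (1.17 against 0.209). Of the B cell list, Cd79b alone had a higher mean in culture (8.90 against 7.73). The part of these differences in the results of this comparison was not tested.

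Rel (-0.02, 95% interval -0.35 to 0.30, adjusted p = 0.907) and Rela (-0.23, -0.51 to 0.05, adjusted p = 0.187) did not pass. Rela was called without culture WT replicate 2 (adjusted p = 0.0232), and Nfkbib lost its call without node WT replicate 1 or 2 (adjusted p = 0.0600 and 0.0610) and with no filter on low values (0.0519). The other 7 calls held in all 16 alternatives. Of the 61 pathway genes, 11 rose and 23 fell, with a median of -0.11 on the log2 scale against 0.03 over the whole table.

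Of the antigen receptor route, Malt1 (-1.04, adjusted p = 0.00196) and Bcl10 (-0.45, adjusted p = 0.0151), whose proteins help to link the receptor to IKK, fell. Nfkbiz fell by 2.88 (adjusted p = 1.17e-05) and Bcl3 by 0.99 (adjusted p = 0.00457), also on the log2 scale. Of the TRAF genes, Traf5 (-1.93), Traf3 (-0.46) and Traf2 (-0.42) fell. Ikbke fell (-0.89), whereas Ikbkg, the scaffold of the IKK complex, rose (0.44).

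Deubiquitinase and adaptor genes moved both ways, with Otulin (0.72) and Tax1bp1 (0.90) up and Otud7b (-0.71) down. Cd40lg, a ligand kept in the receptor list, fell (-2.26), as did Tnfrsf4 (-1.52), whereas Tnfrsf9 rose (1.57). Among targets, Gadd45b (-2.22) and Tnf (-1.70) fell and Il2ra, the IL-2 receptor alpha chain, rose from 37.5 ± 11.1 to 260.1 ± 8.98 (2.81, adjusted p = 0.000151). Of these genes Bcl10, Traf2, Traf3 and Ikbkg lost the call in at least 1 alternative.

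Ratios within a library do not depend on scaling. Nfkbia / Rela was 21.3, 17.7 and 15.5 in airway GATIR and 13.3, 12.1 and 17.2 in node GATIR, so these groups overlapped although Nfkbia alone did not. It was 5.31, 7.08 and 6.58 in node WT, 3.72, 3.93, 3.40 and 3.48 in node KO, 0.559 and 0.627 in culture WT and 0.657 and 0.639 in culture KO. Node WT and node KO were separate on this ratio, as they were on Nfkbia / Nfkb1 (1.81, 2.25 and 2.15 against 1.33, 1.04, 1.18 and 1.16). KO replicate 2, low for Nfkb2 and Relb, was the highest of the KO libraries on Nfkbia / Rela. Tnfaip3 / Rela was 4.88, 2.03 and 1.95 in the airway and 0.783, 0.357 and 0.725 in node GATIR, without overlap, and 1.04, 2.61 and 2.04 against 1.23 to 2.05 in node WT and KO, with overlap. The summed inhibitors were 3.62 ± 0.215 times (n = 3) the summed subunits in airway GATIR, 1.12 ± 0.0655 times (n = 4) in node KO and 0.570 ± 0.0664 times (n = 2) in culture WT. These are RNA ratios and say nothing of protein.

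**Figure D5:**
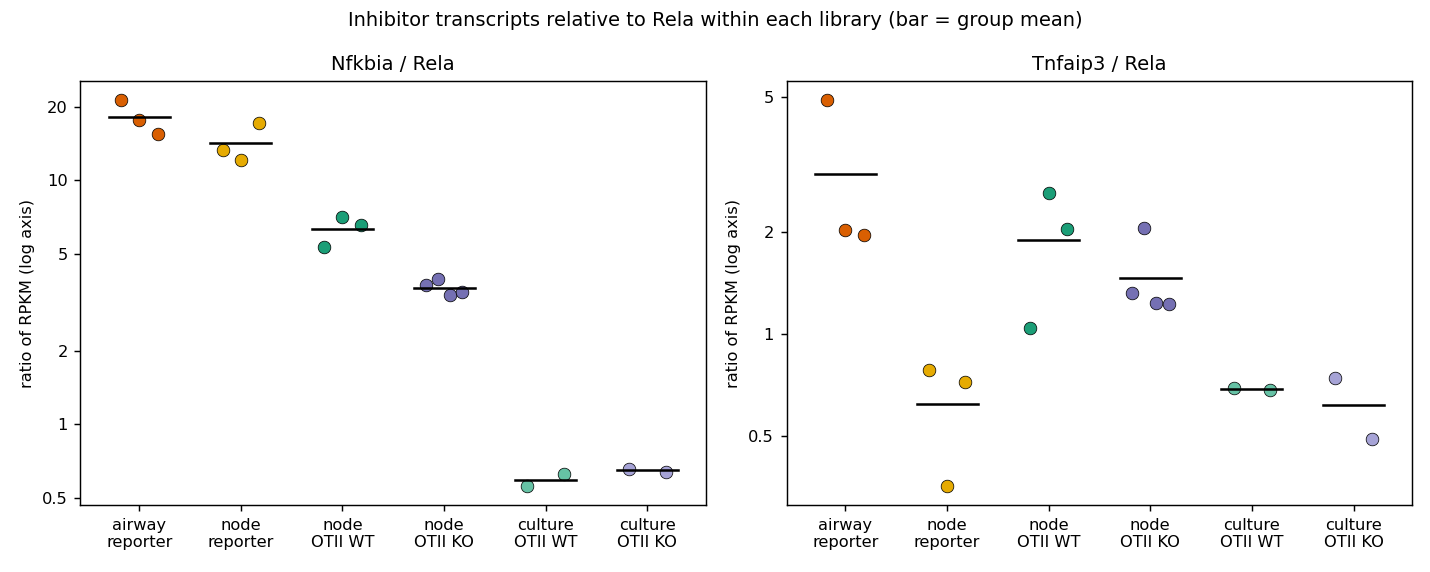
Ratio of Nfkbia to Rela (left) and Tnfaip3 to Rela (right) within each library, on a log axis, with 1 point per library and a bar for the group mean. Nfkbia / Rela spans 0.559 to 21.3, and node KO (3.40 to 3.93) lies below node WT (5.31 to 7.08); Tnfaip3 / Rela lies lowest in node GATIR and culture.

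For the 4 members with the widest range of group means, the genes with the most similar profile over the 17 libraries were sought among 6304 genes (6305 for Relb) at or above 1 in all of them, by the root mean square difference of centred log2 values. For Nfkbia the nearest was Mir1198 (0.34), whose listed span (chr12:55370695-55491306, plus strand) covers 1898 bases of the Nfkbia locus (chr12:55489409-55492647, minus strand). Mir1198 is listed with a length of 58 bases, and whether these lie in the shared stretch is not given. If they do, reads of the pair cannot be told apart without strand. Mir1198 held 2 to 193 reads per library against 658 to 27080 for Nfkbia. The next was Dusp1 (0.45), an immediate-early phosphatase gene. Nearest to Tnfaip3 were Ssh2 (0.59) and Fas (0.62), to Relb Cotl1 and Prkch (both 0.38), and to Nfkbid Ece1 (0.41) and Zfp36l1 (0.44). These distances describe the 17 libraries, which share groups, and carry no test. Nfkb2 (chr19:46305930-46312090) overlaps the gene Psd by 4 bases, and no other member overlaps a listed gene.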

How the data were processed

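Smart-seq2 libraries of mouse T cells (17, in 6 groups) were used. The authors deposited 1 RPKM table per library, with 24537 genes under 1 RefSeq transcript each; per the submitters' processing notes, HISAT2 2.0.4, HOMER, DESeq2 and mm10 were used, with settings not given in the sources used here. Of the genes, 1644 had another transcript in the GATIR than in the OTII tables. Low values gave whole reads (100% within 0.1 of a read, checked below 100 reads), which yielded totals of 16.3 to 27.5 M per library.

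Each library was divided by a size factor (median of ratios) from the 6796 genes with RPKM of at least 1 everywhere. Groups came from the titles. limma 3.58.1 (R 4.3.3) was fitted to log2(scaled RPKM + 1) for each comparison, with lmFit and a trended eBayes, two-sided. A gene was tested if it reached 1 in a number of libraries equal to the size of the smaller group. Benjamini-Hochberg values cover every gene so tested, with a threshold of 0.05, which "rose" and "fell" refer to. A fold change on this scale understates the change of low genes. Tables and ratios were made with Python 3.11.15, pandas 2.3.3 and numpy 2.4.6. The fits were tested on simulated data, where the share of false calls was above the threshold of 0.05. The simulation used the same setting of spread for all genes and comparisons. Real libraries differed in this: airway GATIR libraries correlated with each other at 0.829 to 0.889, and node WT libraries at 0.991 to 0.993.

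The members, the 7 pathway lists (65 genes) and the marker lists were chosen with earlier results of these data known. Named were all members, up to 3 called genes with the smallest p per pathway list and comparison, and the 2 nearest profiles of the 4 members with the widest range; Notch1, Notch2, Dtx1, Psd and single cell type markers were added after values were seen. A gene that this rule names is not reported here. Replicate numbers are not said to link groups, so no block was used. Alternatives were other scalings, pseudocounts, filters and variance models, voom on the recovered reads, wider fits, a replicate block and leaving out each library. Averaging node libraries with a shared header number, and adjusting the airway comparison over genes at or above 1 in all 6 libraries, were added after the data were seen.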

Additional observations from a re-analysis of the deposited data

Results flagged for a closer look

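In node KO, replicate 2 stood far from the other 3 libraries of its group for Nfkb2, at 46.7 scaled RPKM against 67.1 to 68.1, and for Relb, at 26.7 against 45.8 to 48.5. The gap took 0.954 and 0.875 of the group's whole range, above Dixon's 95% critical value for 4 samples. Of the 10 members tested in this way 2 were so marked, and chance marks about 1 group in 20. Both marks fell on the same library and all 10 tests used the same 4 libraries. They are thus not independent, and that rate does not measure how rare 2 marks are.

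The KO effect on Nfkbia differed between culture and node by 1.04 on the log2 scale in the interaction test of limma (adjusted p = 0.0183). The call was kept in 15 of 21 alternatives and lost, among others, with header numbers averaged (adjusted p = 0.0793) and with the replicate block (0.169). Both culture KO libraries lay above the culture WT libraries, and all 4 node KO libraries lay below the node WT libraries.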

How the results depend on the processing

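Over the 50 member values (10 genes in 5 comparisons), 860 alternative values were computed: 797 kept direction and side of the threshold, 23 lost the call, 5 gained it and 35 changed sign. None of the 35 belonged to the 13 called values. The airway comparison called 534 genes, and 225 with no filter on low values, 246 without the variance trend, 246 with voom, 2711 in a fit over all groups and 113 to 554 when 1 library was left out. The node KO comparison called 1970, and 1015 to 2721 with 1 library left out. The culture KO comparison called 0 genes, 1 in the wider fit, 2 with voom and 1 to 58 with 1 library left out. The interaction called 443, 257 with header numbers averaged, and 198 to 555 with 1 library left out. The comparison of culture with node called 3454, and 2203 to 4348 with 1 library left out. Members called went from 2 to 1 in the airway without the trend (1 to 2 with 1 library left out). In the node they went from 2 to 1 on RPKM as deposited, with upper-quartile scaling, with no filter, without the trend and with header numbers averaged (1 to 4 with 1 library left out). For the interaction they went from 1 to 0 with header numbers averaged (0 to 1 with 1 library left out), and for culture against node from 8 to between 7 and 9. The cause was not tested.

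The replicate block called 636 genes in the node, 65 in culture and 136 in the interaction, and 1 and 0 members in the node and the interaction, where Nfkbie (adjusted p = 0.193) and Nfkbia (adjusted p = 0.169) lost the call. Deviations of libraries from their group means do not settle whether the numbers pair them. For same-numbered libraries these deviations correlated at 0.01 to 0.03 in the GATIR groups and -0.07, -0.25 and -0.29 in the node. The values were -0.17 in culture, and -0.00206 and 0.30 between culture WT and node WT. With 2 libraries a group, deviations in culture mirror each other, so other-numbered culture KO and WT libraries give 0.17. In the GATIR groups, but not in the node, each library correlated best with its own number. Numbers without a partner (node KO replicate 4; node WT replicate 3 against culture) add nothing to a block fit.

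Sign changes were confined to values that did not pass. On RPKM as deposited they were Nfkb1 in the airway (-0.12), and Nfkb1 (0.0346) and Nfkbid (0.0325) in the interaction; with upper-quartile scaling Nfkb1 in the airway (-0.0194); and with the replicate block Rel in culture against node (0.00793). With 1 library left out, the ranges that crossed 0 were, in the airway, Nfkb1 -0.0856 to 0.0919, Nfkb2 -0.0176 to 0.29, Nfkbib -0.0692 to 0.30, Nfkbie -0.39 to 0.0465 and Relb -0.0359 to 0.47. In node KO they were Nfkbid -0.22 to 0.0103 and Tnfaip3 -0.59 to 0.0287. In culture KO they were Nfkbid -0.34 to 0.0375, Nfkbie -0.0507 to 0.28, Rel -0.19 to 0.14, Relb -0.0302 to 0.52 and Tnfaip3 -0.32 to 0.35. In the interaction they were Nfkb1 -0.0648 to 0.0255, Nfkb2 -0.28 to 0.16, Nfkbid -0.21 to 0.17, Rela -0.0312 to 0.29, Relb -0.45 to 0.10 and Tnfaip3 -0.0807 to 0.60. In culture against node it was Rel, -0.19 to 0.14. Depth limits Rel most, at 290 to 651 reads per library, and 2 to 4 libraries a group limit what can be told of small differences.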
